A study of Mus musculus with 12 samples.

Results

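The 49 genes described here encode proteins of the sarcomere, and they were taken by symbol from the 22276 gene symbols of an RNA-seq survey of 4 mouse organs. By position in the sarcomere they were divided into 15 genes of the thick filament, 15 of the thin filament, 9 of the Z-disc, 2 of the M-band and 8 associated proteins. By fibre class they were divided into 13 slow, 11 fast, 3 developmental and 22 common genes, from general knowledge of where each protein is used. WAT, BAT, liver and quadriceps muscle of male C57BL/6J mice were sequenced in 3 groups, which makes 12 libraries, 1 for each organ in each group. NCD-veh mice ate a normal chow diet and were gavaged weekly with vehicle (hydroxypropyl cyclodextrin), HFD-veh mice ate a high-fat diet from 8 wk of age and received the same vehicle, and HFD-ncls mice ate the high-fat diet and received narciclasine (ncls), a plant alkaloid, at 1 mg/kg from 10 wk of age. All mice were 17 wk old when the organs were taken, and the labels name no transgene or deletion. How many mice went into a library is not stated, so no spread between animals, no test and no p-value is given. The comparisons describe single libraries, and each difference below may lie within the variation between mice.

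The sarcomere is the repeating contractile unit of striated muscle. Thick filaments of myosin pull on thin filaments of actin, tropomyosin and troponin, the thin filaments are anchored at the Z-disc, and the thick filaments are held in register at the M-band. Slow-twitch and fast-twitch fibres build the same structure from different paralogs of myosin, troponin and several other proteins, and the slow paralogs are in part also those of the heart. Quadriceps of the mouse is made mainly of fast fibres, while adipocytes and hepatocytes build no sarcomeres.

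To show the regulatory sequence beside the values, the 250 bases before the RefSeq transcription start (GRCm38.p6) are printed for 3 pairs of paralogs, because in each pair the first gene was over 2-fold lower in HFD-veh than in NCD-veh muscle and the second was not. The pairs are cardiac and skeletal alpha-actin (Actc1, chr2:114052876-114053125, minus strand, and Acta1, chr8:123894776-123895025, minus strand), slow and fast essential light chain (Myl3, chr9:110763428-110763677, plus strand, and Myl1, chr1:66945057-66945306, minus strand) and slow and fast troponin C (Tnnc1, chr14:31208062-31208311, plus strand, and Tnnc2, chr2:164779735-164779984, minus strand). Each sequence is written 5′ to 3′ on the strand of the gene. Capitals mark, on either strand, a CArG box (the site of serum response factor), an MEF2 site, the M-CAT motif CATTCC of TEAD factors or the TATA motif TATAAA of core promoters.
Actc1: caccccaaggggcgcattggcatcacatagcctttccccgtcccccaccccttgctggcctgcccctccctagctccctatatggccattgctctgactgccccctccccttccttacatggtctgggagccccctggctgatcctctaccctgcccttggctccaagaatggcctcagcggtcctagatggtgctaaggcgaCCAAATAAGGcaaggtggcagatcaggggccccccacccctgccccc
Acta1: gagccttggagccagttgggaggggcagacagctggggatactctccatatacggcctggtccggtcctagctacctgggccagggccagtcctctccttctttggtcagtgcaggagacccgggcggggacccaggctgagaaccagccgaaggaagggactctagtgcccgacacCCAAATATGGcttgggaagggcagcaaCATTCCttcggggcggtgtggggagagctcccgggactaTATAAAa
Myl3: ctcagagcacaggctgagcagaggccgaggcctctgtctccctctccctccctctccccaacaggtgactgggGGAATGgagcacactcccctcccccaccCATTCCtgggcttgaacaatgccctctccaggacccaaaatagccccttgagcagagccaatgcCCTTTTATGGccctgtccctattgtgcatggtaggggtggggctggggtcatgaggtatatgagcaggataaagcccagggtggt
Myl1: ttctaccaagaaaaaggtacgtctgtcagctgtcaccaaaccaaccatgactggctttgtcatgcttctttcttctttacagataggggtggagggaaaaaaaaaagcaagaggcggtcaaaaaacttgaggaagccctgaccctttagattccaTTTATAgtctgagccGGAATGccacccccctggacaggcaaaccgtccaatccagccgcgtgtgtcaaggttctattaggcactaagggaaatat
Tnnc1: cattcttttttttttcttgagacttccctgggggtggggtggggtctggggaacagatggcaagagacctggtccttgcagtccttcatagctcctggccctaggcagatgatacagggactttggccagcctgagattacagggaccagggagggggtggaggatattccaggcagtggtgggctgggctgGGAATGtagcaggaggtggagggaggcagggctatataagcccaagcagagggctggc
Tnnc2: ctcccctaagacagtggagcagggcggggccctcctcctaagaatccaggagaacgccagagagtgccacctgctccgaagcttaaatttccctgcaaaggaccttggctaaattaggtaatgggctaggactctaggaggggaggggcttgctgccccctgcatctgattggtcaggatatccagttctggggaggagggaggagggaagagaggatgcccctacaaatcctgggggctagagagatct
A CArG box was found in the windows of Actc1, Acta1 and Myl3, so it did not separate the genes that were lower in HFD-veh muscle from those that were not. RefSeq windows were matched for 38 of the 49 members. A gene was counted when any of its windows held the motif. A CArG box occurred in 5 of these 38 members (13.2%) and in 1.62% of all 27025 genes with a window, and an MEF2 site occurred in 5 (13.2%) and in 3.42% of all genes. The M-CAT motif occurred in 11 members (28.9%) against 14.4% of all genes, and the TATA motif in 9 (23.7%) against 14.3%. The E-box CANNTG, the site of MyoD and its relatives, was left in lower case because it is so frequent, with 32 of the 38 members (84.2%) and 69.3% of all genes. All 13 slow genes had an E-box in a window, and 1 of them, Myl3, had a CArG box. A match is a run of letters, and binding was not measured.

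The labelled organs carried their own markers. Ucp1, the uncoupling protein of brown adipocytes, was between 740 and 770 FPKM in the BAT libraries and at most 3.92 elsewhere. Liver transcripts were present in HFD-veh muscle, where all 16 genes of a liver list were over 2-fold above NCD-veh muscle. Apoa2, a liver apolipoprotein, was at 0.348 FPKM (NCD-veh), 117 (HFD-veh) and 0.112 (HFD-ncls) in muscle, and the summed level of the 16 genes was 21.4, 363 and 13.7 FPKM. Fragments per library, estimated from the steps between low values, ranged from about 18600000 to 26300000. FPKM is a level per length of transcript, so levels of different genes can be set side by side.

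The sarcomere protein genes made up 29.7%, 29.5% and 28.8% of the summed FPKM of the NCD-veh, HFD-veh and HFD-ncls muscle libraries. Values below follow this order of groups wherever 3 are given. Between 9 and 10 of the 20 most abundant symbols in each muscle library were members. Skeletal alpha-actin Acta1, the main protein of the thin filament, ranked first in all 3 libraries, at 24220, 22749 and 23146.5 FPKM. The 3 libraries lay close together for this gene. Fast troponin T (Tnnt3), which ties the troponin complex to tropomyosin, was at 16428, 17272 and 15800 FPKM. In the thick filament, the fast regulatory light chain Mylpf was at 10422, 9479 and 9330 FPKM. The fast essential light chain Myl1 was at 10297, 10346 and 8933 FPKM. Neither light chain differed by 1.4-fold between any 2 of the muscle libraries.

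Fast alpha-actinin (Actn3), which crosslinks thin filaments at the Z-disc, was at 2868, 2544 and 2794 FPKM in muscle. Myozenin 1 (Myoz1), a Z-disc protein that binds calcineurin, was at 1637, 1557 and 1531 FPKM. These Z-disc genes stood well under the highest thin filament genes and were as even across the groups. The myomesins bridge thick filaments at the M-band, and both were lowest in HFD-veh. Myom1 was at 309, 223 and 289 FPKM, and Myom2 was at 311, 215 and 267 FPKM. Among associated proteins the highest in NCD-veh were the Xin repeat protein Xirp2, at 211, 158 and 211 FPKM, and the nebulin-related anchoring protein Nrap, at 207, 194 and 257 FPKM, while myospryn (Cmya5), at 199, 170 and 207 FPKM, was above Xirp2 in HFD-veh. The order of roles by their highest genes was the same in each group.

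**Figure D1:**
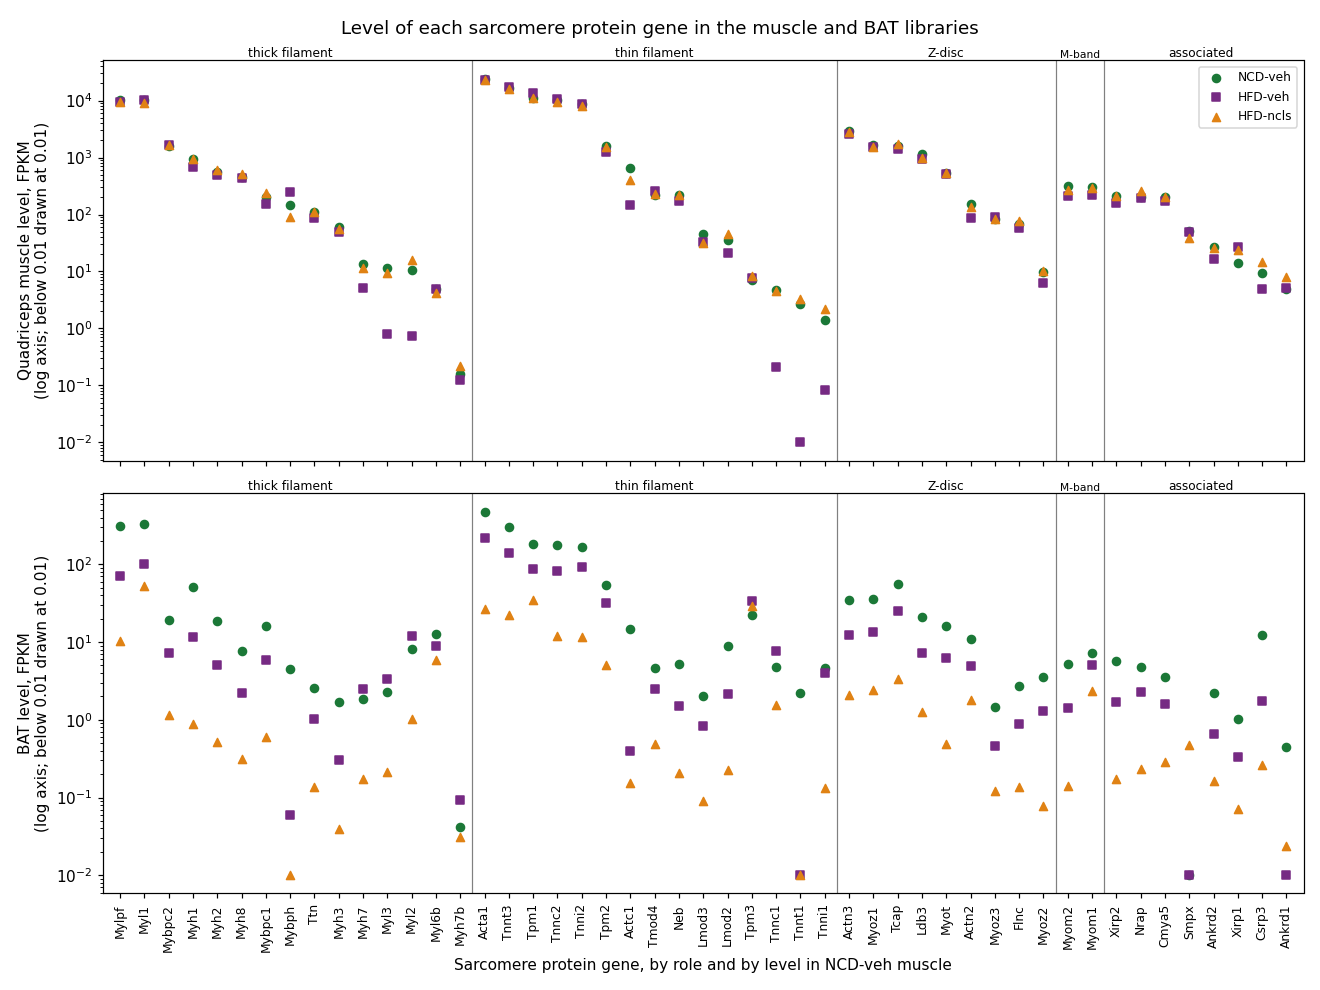
Level of each of the 49 sarcomere protein genes (FPKM, log axis) in the 3 libraries of quadriceps muscle (upper panel) and of BAT (lower panel), with genes ordered by role and by level in NCD-veh muscle. Each point is 1 library. In muscle the 3 points of most genes overlap and a few slow genes are low in HFD-veh, whereas in BAT the points of most genes are ordered NCD-veh, HFD-veh, HFD-ncls from the top.

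In muscle, a small set of slow and developmental genes was low in the HFD-veh library and close to the NCD-veh level in the HFD-ncls library, while the fast genes and most structural genes were nearly level. Between HFD-veh and NCD-veh muscle, 7 of the 48 members that reached 1 FPKM in either library differed over 2-fold, against 4.11% of all 9587 genes. All 7 were lower in HFD-veh, a direction that 0.970% of all genes took. They were Tnnt1, Tnni1, Tnnc1, Myl2, Myl3, Myh7 and Actc1. The paper lists these same 7 as its muscle protein category, picked from these libraries by a 2-fold change. Their count therefore restates that selection and is no separate support for it. Between HFD-ncls and HFD-veh muscle, 10 members differed over 2-fold against 3.80% of all 9694 genes, and 9 of them were higher in HFD-ncls against 1.27% of all genes. These 9 were the same 7 genes with Lmod2 and Csrp3. The paper picked the 7 as up-regulated by ncls as well, so this count also restates its selection. Between HFD-ncls and NCD-veh muscle, no member differed over 2-fold, against 1.21% of all 9516 genes. Over 1.4-fold the counts of the 3 comparisons were 17 (13.3% of all genes), 15 (13.9%) and 8 (8.88%). These 3 comparisons share libraries, and a low value in HFD-veh enters the first and the second alike. Tnnt1, Tnni1, Tnnc1, Myl2 and Myl3 were under 1 FPKM in HFD-veh. They reached the minimum only through NCD-veh or HFD-ncls, so the minimum fixed their direction in both comparisons. With a minimum of 5 FPKM, 4 members were over 2-fold apart in the first comparison and 7 in the second.

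The median log2 difference between HFD-veh and NCD-veh muscle was -0.23 over the members and 0.03 over all genes. It was -1.15 for the 12 slow genes that reached 1 FPKM, 0.01 for the 11 fast genes (-0.02 rescaled by the median ratio of all genes and -0.08 centred by length class), -0.28 for the 3 developmental genes and -0.23 for the 22 common genes. Between HFD-ncls and HFD-veh the medians were 0.29 over the members, 0.04 over all genes, 1.37 for the slow and -0.02 for the fast genes. With a minimum of 5 FPKM the slow medians of the 2 comparisons were -0.81 and 0.94. The slow class holds most genes of the paper's list, picked from these libraries as low in HFD-veh. Its contrast with the fast genes is therefore in part built in. By role, 3 of 14 thick filament genes and 4 of 15 thin filament genes were over 2-fold lower in HFD-veh than in NCD-veh muscle, and none of the 9 Z-disc, 2 M-band or 8 associated genes was. This split by role recounts the genes of the paper's list. HFD-veh was the lowest of the muscle libraries for 32 of the 49 members, for 11 of 13 slow genes and for 3 of 11 fast genes. Over all 9795 genes that reached 1 FPKM in a muscle library, HFD-veh was lowest for 36.0%.

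The differences were concentrated in the calcium switch of the thin filament and in the myosin light chains. Slow troponin T (Tnnt1) was at 2.69 FPKM in NCD-veh muscle, at 3.29 FPKM in HFD-ncls muscle and under 0.001 FPKM in HFD-veh muscle. Slow troponin I (Tnni1), the inhibitory subunit, was at 1.42, 0.0840 and 2.18 FPKM. Troponin C of slow and cardiac muscle (Tnnc1), the calcium-binding subunit, was at 4.64, 0.211 and 4.56 FPKM. All 3 subunits of slow troponin were thus near the floor of detection in HFD-veh muscle, and the levels in the other 2 libraries were themselves low. By the estimated depth, Tnni1 corresponded to about 41.1, 2.54 and 64.5 fragments and Tnnc1 to about 84.3, 3.99 and 84.7, so the HFD-veh levels rest on a handful of fragments. The log2 difference between HFD-ncls and HFD-veh was 3.63 for Tnni1 and 3.91 for Tnnc1. No ratio is given for Tnnt1, because its HFD-veh value stood at no whole fragment.

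The slow regulatory light chain Myl2 was at 10.5, 0.735 and 16.2 FPKM in muscle, about 236, 17.2 and 370 fragments. The slow essential light chain Myl3 was at 11.7, 0.807 and 9.59 FPKM, about 277, 20.01 and 233 fragments. HFD-veh was more than 10-fold under the other libraries for both. Slow myosin heavy chain Myh7, the motor itself, was at 13.4, 5.11 and 11.7 FPKM, a log2 difference of -1.38 for HFD-veh against NCD-veh and of 1.18 for HFD-ncls against HFD-veh. The heavy chain therefore had the same order of libraries as its light chains with a smaller difference. Of the 50-base stretches of Myh7, 22.2% also occur in Myh6, the cardiac alpha heavy chain next to it on chromosome 14, so some fragments may be assigned to either gene. Myh6 was at 7.65, 5.16 and 10.2 FPKM.

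Cardiac alpha-actin (Actc1), the actin of developing muscle, was at 642, 146 and 407 FPKM in muscle. It rested on about 5659 fragments in HFD-veh, and HFD-ncls lay between the other libraries. The log2 difference was -2.13 for HFD-veh against NCD-veh and 1.48 for HFD-ncls against HFD-veh. Leiomodin 2 (Lmod2), which elongates thin filaments at the pointed end, was at 36.0, 21.3 and 45.5 FPKM. Its relative leiomodin 3 (Lmod3) was at 45.8, 32.4 and 31.4 FPKM, so that its HFD-ncls and HFD-veh values were alike. Muscle LIM protein (Csrp3), a stress-responsive Z-disc partner of slow muscle and heart, was at 9.29, 4.85 and 14.6 FPKM. Both Lmod2 and Csrp3 were highest in HFD-ncls.

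Myosin-binding protein H (Mybph), a thick filament protein, was the only member whose HFD-ncls value in muscle was over 2-fold under HFD-veh. It was at 148, 253 and 91.5 FPKM, about 12158 fragments in HFD-veh, and its log2 differences were 0.77 for HFD-veh against NCD-veh and -1.47 for HFD-ncls against HFD-veh. HFD-veh was the highest library for Mybph and the lowest for 11 of the 13 slow genes. Xin (Xirp1), an actin-binding protein of the junctions, was above NCD-veh in both HFD libraries, at 14.0, 26.8 and 23.9 FPKM. These 2 genes were the members higher by over 1.4-fold in HFD-veh than in NCD-veh muscle, a direction that 7.74% of all genes took.

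Not all slow genes were over 2-fold lower in HFD-veh. Slow myosin-binding protein C (Mybpc1) was at 201, 153 and 240 FPKM, myozenin 2 (Myoz2) at 9.77, 6.16 and 10.1, and the titin-spring protein Ankrd2 at 26.6, 16.3 and 26.1 FPKM. These 3 had HFD-veh as the lowest library with under 2-fold differences. The slow light chain Myl6b, at 4.99, 4.90 and 4.22 FPKM, and slow tropomyosin Tpm3, at 7.15, 7.72 and 8.42 FPKM, did not follow the order. The remaining slow myosin, Myh7b, stayed under 0.3 FPKM in muscle. The difference thus covered slow troponin, the ventricular-type light chains and the slow heavy chain, and not every gene used by slow fibres. The 3 listed genes of slow muscle outside the sarcomere were not over 2-fold apart between any 2 muscle libraries. Atp2a2, the slow calcium pump, was at 7.31, 4.84 and 9.20 FPKM. Casq2, its slow calsequestrin partner, was highest in HFD-veh at 3.32 FPKM, against 2.56 in NCD-veh and 2.53 in HFD-ncls.

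Most fast counterparts were even. Fast troponin I (Tnni2) was at 8651, 8834 and 8055 FPKM in muscle, and fast troponin C (Tnnc2) at 10088, 10690 and 9355 FPKM. Fast myosin-binding protein C (Mybpc2) was at 1620, 1642 and 1656 FPKM. None of these differed by 1.4-fold. The fast heavy chains Myh1 (type IIX), at 957, 683 and 936 FPKM, and Myh2 (type IIA), at 552, 487 and 609 FPKM, were lowest in HFD-veh, and Myh1 was the only fast gene over 1.4-fold lower there than in NCD-veh. Myh1, Myh2 and perinatal Myh8 lie with 3 other heavy chain genes in a cluster on chromosome 11 (mm9, chr11:66891802-67185088), and 26.7%, 26.9% and 21.4% of their 50-base stretches occur in another gene, mostly of the cluster. Myh4, the type IIB heavy chain of the same cluster, had no value in any muscle library. Perinatal Myh8 was at 448, 432 and 508 FPKM, and some of its fragments may be those of adult heavy chains. Embryonic Myh3 was at 59.9, 49.3 and 56.1 FPKM.

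Alpha-actinin 2 (Actn2), found in all fibres, was at 152, 86.1 and 134 FPKM, so that HFD-veh was low without reaching 2-fold. The giant proteins moved little. Titin (Ttn), the elastic filament from Z-disc to M-band, was at 112, 87.9 and 108 FPKM, and nebulin (Neb), the ruler of the thin filament, at 219, 173 and 217 FPKM. In all, 29 of the 49 members stayed within 1.4-fold in the 3 muscle libraries, 10 lay between 1.4-fold and 2-fold, 10 exceeded 2-fold, and the median range was 0.37 on the log2 scale. Differences also moved with transcript length. Between HFD-ncls and HFD-veh the median log2 difference of all genes was -0.10, -0.01 and 0.12 from the shortest to the longest of 3 equal length classes, and that of the members was -0.02 (n = 19), 0.13 (n = 8) and 0.32 (n = 17). With each gene centred on the median of its length class, the median over the members was 0.13 in place of 0.29 and that of the thick filament genes 0.10 in place of 0.27. The median of the slow genes was then 1.32 in place of 1.37, and 10 members were over 2-fold apart as before.

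**Figure D2:**
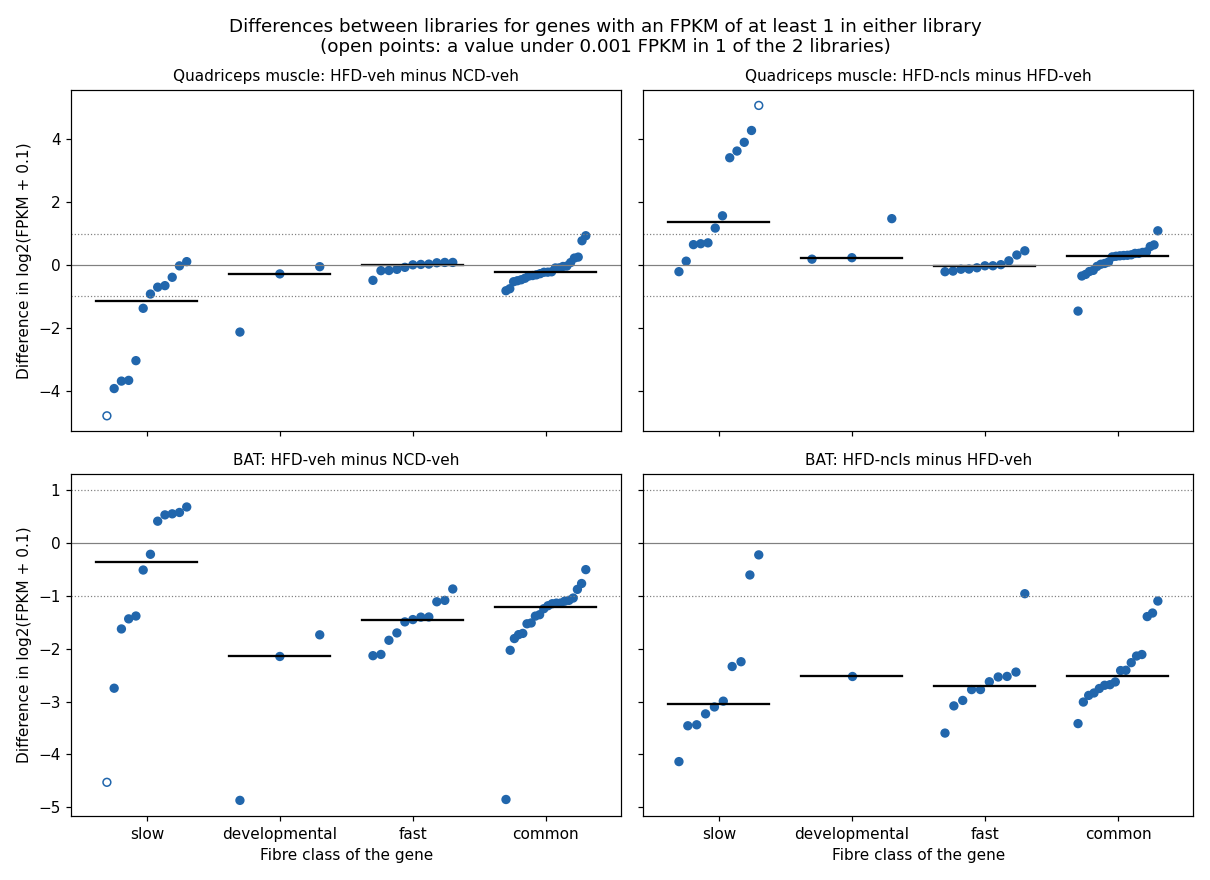
Difference in log2(FPKM + 0.1) of each sarcomere protein gene that reached 1 FPKM in either library, by fibre class, for HFD-veh minus NCD-veh (left) and HFD-ncls minus HFD-veh (right) in muscle (upper) and BAT (lower). Points are genes, black lines are class medians and dotted lines mark 2-fold. Among the filled points in muscle the slow genes spread to -3.93 and 4.29 while the fast genes lie between -0.49 and 0.45, and in BAT most points lie below 0. The open point is Tnnt1, which had a value under 0.001 FPKM, so the pseudocount sets its place.

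Related genes fill the same place in the sarcomere, so the first gene of each of 10 pairs (slow and fast paralogs, cardiac and skeletal actin, and alpha-actinin 2 and 3) was also expressed as a percent of the pair's summed FPKM. In muscle the first gene was the minor partner in every pair and its percent was lowest in HFD-veh in all 10. The paper picked the first genes of the troponin, light chain, heavy chain and actin pairs from these libraries by a 2-fold change. Where the second gene is nearly level, that selection fixes a low percent in HFD-veh, so these pairs are no separate support. The Mybpc1, Myoz2 and Actn2 pairs lie outside that selection. The heavy chain pair set Myh7 against Myh1 and Myh2 without Myh4, which had no value in muscle. Slow troponin T made up 0.0164% of the Tnnt1 and Tnnt3 sum in NCD-veh and 0.0208% in HFD-ncls muscle. For troponin C (Tnnc1 and Tnnc2) the percent was 0.0460, 0.00197 and 0.0488 in muscle. For the regulatory light chains (Myl2 and Mylpf) it was 0.101, 0.00775 and 0.173. For myosin-binding protein C (Mybpc1 and Mybpc2), the pair with the largest minor partner, the percent was 11.02, 8.53 and 12.7, and for the actins (Actc1 and Acta1) it was 2.58, 0.638 and 1.73. Over the 10 pairs together the first genes made up 1.18%, 0.460% and 1.012% of the summed level.

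In BAT the sarcomere genes were lower in each further group. They made up 0.910%, 0.402% and 0.0913% of the summed FPKM, and 46, 37 and 19 members reached 1 FPKM. The order NCD-veh, HFD-veh, HFD-ncls from high to low held for 41 of the 49 members, and for 22.8% of all 10533 genes that reached 1 FPKM in a BAT library. HFD-ncls was the lowest library for 46 members and for 35.8% of all genes. Between HFD-veh and NCD-veh BAT, 35 of 46 members differed over 2-fold, against 4.29% of all 10444 genes, and all 35 were lower in HFD-veh (2.01% of all genes). Between HFD-ncls and HFD-veh BAT, 34 of 37 members differed over 2-fold, against 1.96% of all 10331 genes, all of them lower in HFD-ncls (1.70% of all genes). Over 1.4-fold, 44 members differed in the former comparison (17.6% of all genes) and 36 in the latter (8.53%). The median log2 differences were -1.38 and -2.63 over the members and -0.04 and -0.02 over all genes. All 46 members of the former comparison reached 1 FPKM in NCD-veh, but only 37 in HFD-veh. All 37 of the latter reached it in HFD-veh, but only 19 in HFD-ncls. For members that reached it in 1 of the 2 libraries the minimum fixed the direction, so their part of these one-sided counts is no result.

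Acta1 was at 478, 217 and 26.8 FPKM in BAT. Tnnt3 was at 300, 139 and 22.4 FPKM, Tnni2 at 169, 92.5 and 11.6, and Tnnc2 at 177, 83.3 and 12.1 FPKM. All 3 fast troponin subunits thus had the same order of groups as actin. In the thick filament Myl1 was at 332, 102 and 52.3 FPKM, Mylpf at 315, 71.6 and 10.4, and Mybpc2 at 19.2, 7.20 and 1.17. The fast heavy chains Myh1, at 51.0, 11.7 and 0.877 FPKM, and Myh2, at 18.7, 5.15 and 0.519, had larger differences. The fast heavy chain Myh4, which is not a member, was at 83.6, 48.6 and 6.28 FPKM in BAT, with smaller differences than Myh1 and Myh2. Myl1 was the fast gene with the smallest difference between HFD-ncls and HFD-veh, a log2 difference of -0.96, and the only fast gene of those with at least 1 FPKM that stayed within 2-fold there. At the Z-disc telethonin (Tcap), the cap of titin, was at 56.0, 25.4 and 3.35 FPKM, Myoz1 at 35.7, 13.4 and 2.39, Actn3 at 35.3, 12.5 and 2.06, and Actn2 at 11.1, 4.95 and 1.82. In the M-band Myom1 was at 7.28, 5.10 and 2.32 and Myom2 at 5.28, 1.43 and 0.139. All 11 fast, 9 Z-disc and 2 M-band genes followed the order of groups.

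Some slow genes behaved otherwise between the vehicle groups in BAT. Of the 13 slow genes 6 were highest in HFD-veh BAT, and no gene of another class was. HFD-veh was the highest BAT library for 31.4% of all genes. The other 7 slow genes had the order of the fast genes. The 6 include Tpm3 and also Myh7b, which stayed under 0.1 FPKM in BAT. Myh7 was at 1.84, 2.48 and 0.174 FPKM in BAT. Its light chains had the same order, with Myl2 at 8.25, 12.1 and 1.03 FPKM and Myl3 at 2.27, 3.32 and 0.211 FPKM. Tnnc1 was at 4.77, 7.70 and 1.54 FPKM, and Tnni1 was nearly level between the vehicle groups, at 4.64, 3.98 and 0.132 FPKM. Tnnt1 was at 2.21 FPKM in NCD-veh and under 0.001 FPKM in the other BAT libraries, so it did not accompany its troponin partners. The median log2 difference between HFD-veh and NCD-veh BAT was -0.36 for the 12 slow genes with at least 1 FPKM (0.02 with a minimum of 5 FPKM) and -1.45 for the fast genes. Between HFD-ncls and HFD-veh it was -3.05 for slow and -2.70 for fast genes. Of the 37 members with at least 1 FPKM in both organs, 7 were over 2-fold higher in muscle and over 2-fold lower in BAT in HFD-ncls than in HFD-veh, as were 0.0799% of all 8765 genes compared in both. Each of the 7 reached 1 FPKM in only 1 of the HFD libraries of at least 1 organ, where the minimum fixed its direction.

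Other slow and developmental genes departed from this. Mybpc1 (16.2, 5.91 and 0.599 FPKM), Myoz2 (3.58, 1.31 and 0.0773) and Csrp3 (12.3, 1.74 and 0.264) followed the fast genes. Actc1 was at 14.6, 0.401 and 0.155 FPKM, a larger difference between the vehicle groups than Acta1 had. Mybph was at 4.53 and 0.0604 FPKM in NCD-veh and HFD-veh and listed under 0.001 FPKM in HFD-ncls BAT. Lmod2 was at 8.97, 2.12 and 0.229 FPKM, and Xirp1 at 1.03, 0.331 and 0.0716 FPKM. Tpm3, at 22.6, 33.8 and 28.8 FPKM, and Myl6b, at 12.7, 8.88 and 5.80 FPKM, remained above 5 FPKM in every BAT library. Both are also used outside muscle, and 62.4% of the 50-base stretches of Tpm3 occur in another gene. Nrap was at 4.85, 2.30 and 0.235 FPKM.

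HFD-ncls was the lowest BAT library for every member but Tpm3, whose HFD-ncls value lay between the vehicle groups, Ankrd1 and Smpx. Ankrd1, a cardiac ankyrin repeat protein, was at 0.449 FPKM in NCD-veh BAT and at 0.0235 FPKM in HFD-ncls BAT, and it was listed at 0 in HFD-veh BAT. Smpx, a small protein of the costamere, was under 0.001 FPKM in both vehicle groups and at 0.474 in HFD-ncls BAT, although it was at 50.7, 49.7 and 39.0 FPKM in muscle. HFD-ncls was not under HFD-veh for Ankrd1 and Smpx, and neither reached 1 FPKM. Of 24 muscle genes outside the sarcomere, 22 had the order of the fast members, and Cox7a1 and Cox8b, which brown adipocytes also express, had the opposite order. The order of the fast members held for 22.8% of all genes. Muscle creatine kinase (Ckm) was at 248, 120 and 17.7 FPKM and parvalbumin (Pvalb) at 253, 76.6 and 15.1 FPKM in BAT. Of the 24 genes, 14 of the 17 with at least 1 FPKM had HFD-ncls over 2-fold under HFD-veh, against 1.70% of all genes. All 17 reached 1 FPKM in HFD-veh but only 12 in HFD-ncls, so the minimum fixed the direction of the rest. Among 8 brown adipocyte genes Ucp1 was at 770, 768 and 740 FPKM and Cox8b at 4380, 5142 and 5863 FPKM. The fatty acid elongase Elovl3, at 18.6, 7.39 and 6.52 FPKM, was the only one over 2-fold apart between the vehicle groups, and the deiodinase Dio2, at 1.32, 1.62 and 0.484 FPKM, the only one between the HFD groups. In these bulk samples a smaller amount of muscle tissue and less RNA per muscle cell cannot be told apart, and the amount of muscle in each BAT sample was not measured.

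Set against the muscle library of the same group, the BAT level of the members with at least 10 FPKM in muscle had a median of 2.57% (NCD-veh, 40 genes), 0.954% (HFD-veh, 37 genes) and 0.144% (HFD-ncls, 41 genes). Fast genes lay in a narrow band, with medians of 1.96%, 0.802% and 0.129% and, in NCD-veh, a range from 1.19% to 5.32%. The muscle genes outside the sarcomere with at least 10 FPKM in muscle (21, 22 and 22 of the 24) had nearly the same medians, at 1.97%, 0.757% and 0.131%. Slow genes lay above the band. The 5 slow genes counted in NCD-veh had a median of 13.7%, and Myl2 reached 78.2% of its muscle level. Several slow genes with under 10 FPKM in muscle were higher in BAT than in muscle, and Tnni1 in NCD-veh BAT was at 327% and Csrp3 at 132% of the quadriceps level. The slow genes of BAT therefore did not stand in the ratio to fast genes that quadriceps has.

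**Figure D3:**
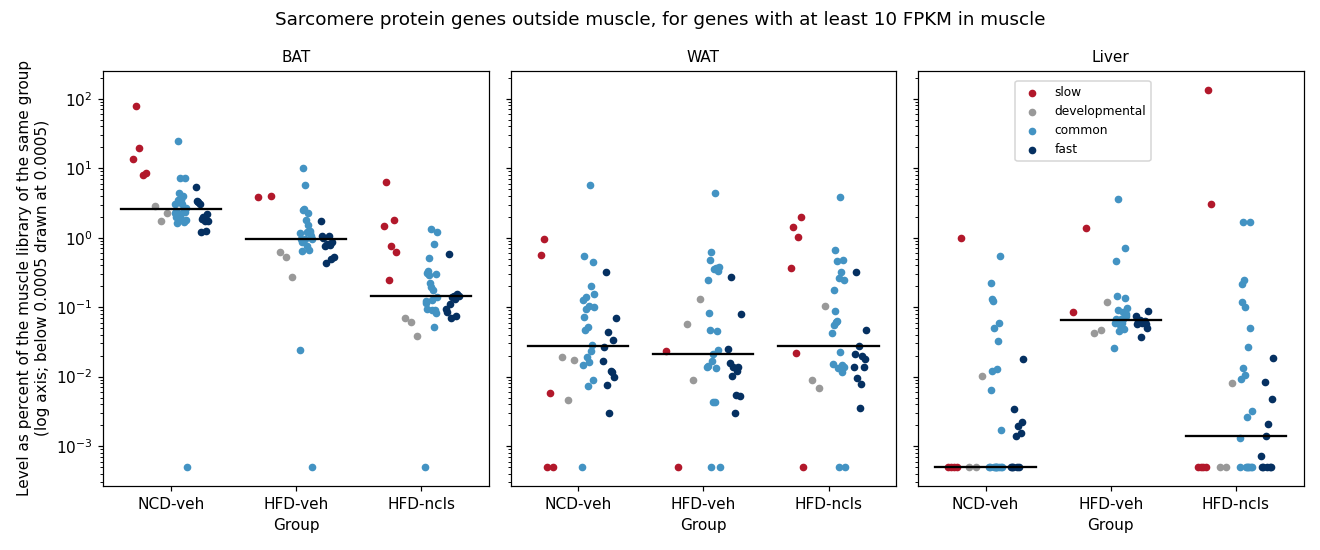
Level of sarcomere protein genes in BAT, WAT and liver as a percent of the level in the muscle library of the same group (log axis), for genes with at least 10 FPKM in that muscle library. Points are genes coloured by fibre class and black lines are medians over all classes. The BAT median steps down from 2.57% to 0.954% and 0.144%, and the liver points are tight in HFD-veh at a median of 0.0648%.

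The pairs showed the same contrast within each library, where depth and scaling cancel. The first gene's percent was higher in BAT than in muscle in all 10 pairs in NCD-veh, in 9 in HFD-veh and in 8 in HFD-ncls. Its median over the pairs was 2.64%, 8.68% and 6.06% in BAT and 0.353%, 0.201% and 0.415% in muscle. For the heavy chains (Myh7 against Myh1 and Myh2) it was 2.57%, 12.8% and 11.1% in BAT and 0.882%, 0.434% and 0.750% in muscle. This pair leaves out Myh4, at 83.6, 48.6 and 6.28 FPKM in BAT, against 51.0, 11.7 and 0.877 FPKM for Myh1. Counting Myh4 would lower all 3 BAT percents, and the muscle percents by an unknown amount, since it had no value there. The heavy chain contrast between organs and between groups therefore cannot be sized, and the counts and medians above include this pair without Myh4. For the regulatory light chains it was 2.56%, 14.5% and 8.99% in BAT. Mybpc1 made up 45.7%, 45.0% and 33.9% of its pair and thus about as much as its fast partner in the vehicle groups. The exceptions were Actc1 in both HFD groups, at 0.185% and 0.572% of the actin pair in BAT, and Tnnt1 in HFD-ncls. Tnnt1 was under 0.001 FPKM in both organs of HFD-veh mice, so its pair, although counted among the 9, carries no information there.

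**Figure D4:**
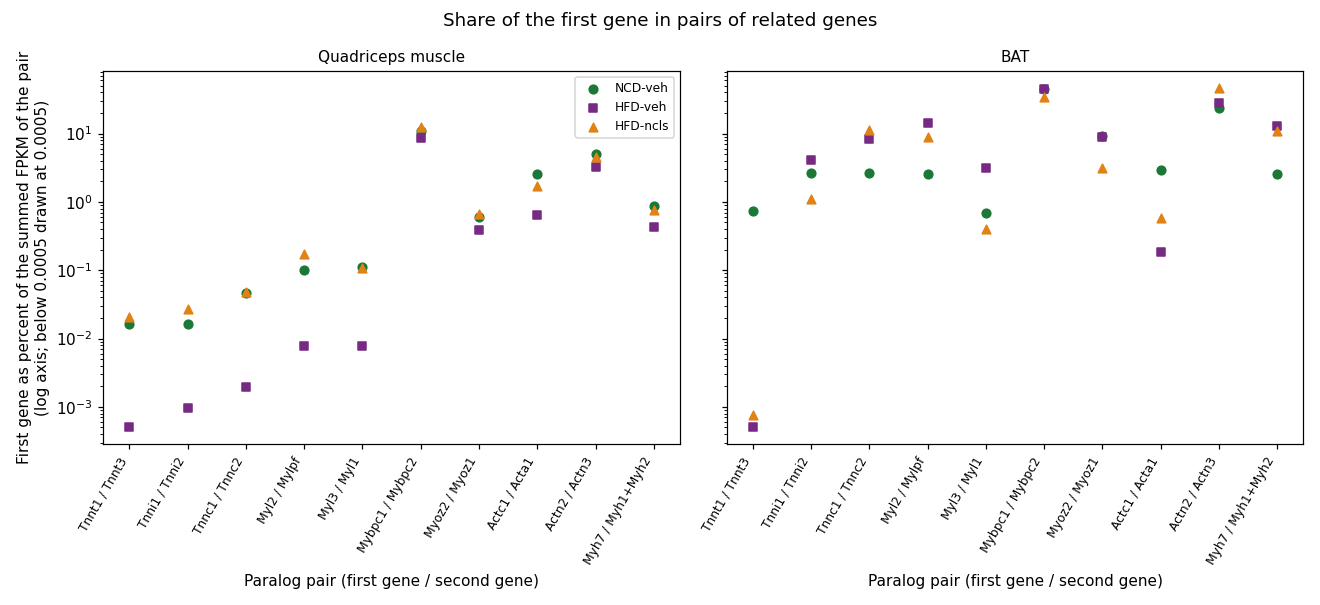
Percent of the summed FPKM of each pair of related genes that came from the first gene (log axis), in muscle (left) and BAT (right). Points are libraries. In muscle HFD-veh is the lowest point in all 10 pairs, and in NCD-veh all 10 pairs have a higher percent in BAT than in muscle. Most of the first genes were picked by the paper from these libraries as low in HFD-veh muscle, which fixes that order for their pairs. The heavy chain pair leaves out Myh4, which had no value in muscle.

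Outside the 49 members, 30 other genes of the sarcomere and its assembly were listed, of which 25 reached 1 FPKM in muscle. Only 1 of the 25 was over 2-fold apart between the HFD muscle libraries, with a median log2 difference (HFD-ncls minus HFD-veh) of 0.07. It was Myom3, the myomesin of slow and intermediate fibres, at 2.37, 1.06 and 2.74 FPKM. Myom3 thus had the order of the slow members. In BAT 9 of 17 such genes were over 2-fold apart between HFD-ncls and HFD-veh, all with HFD-ncls the lower, against 1.70% of all genes. The median of the 17, at -1.003, was nearer 0 than the -2.63 of the members. All 17 reached 1 FPKM in HFD-veh but only 11 in HFD-ncls, so the minimum fixed the direction of the rest. Several of the 17, such as desmin (Des), at 74.9, 39.9 and 26.7 FPKM in BAT, are shared with smooth muscle. None of the 8 smooth muscle genes with at least 1 FPKM differed over 2-fold in that comparison. Of 10 cardiac genes, only the atrial light chain Myl4 reached 1 FPKM in BAT, at 5.73, 3.02 and 2.21 FPKM, and it made up most of their summed level of 7.23, 4.08 and 2.79 FPKM. The cardiac genes Nkx2-5 and Mybpc3 were listed at 0 in all 3 BAT libraries. In muscle this sum was 11.5, 9.60 and 13.7 FPKM and came mostly from Myh6. Adipocyte genes also differed in muscle, where 4 of 8 adipocyte genes were over 2-fold higher in HFD-veh than NCD-veh, 1 (Cfd, at 76.7, 33.4 and 43.9 FPKM) was over 2-fold lower, and 2 of the 8 were over 2-fold lower in HFD-ncls than HFD-veh, and their part in the results was not tested.

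In WAT the members made up 0.0659%, 0.0817% and 0.0838% of the summed FPKM, and 9, 8 and 9 of them reached 1 FPKM. The 3 highest were Tpm3, at 87.6, 118 and 128 FPKM, Tpm1, at 61.0, 64.8 and 73.5, and Acta1, at 30.7, 55.2 and 40.2. The tropomyosins are also made by non-muscle cells, and none of the 3 genes differed over 2-fold between any 2 WAT libraries. Over 2-fold, 1 member differed between HFD-veh and NCD-veh WAT (Ldb3, against 9.11% of all genes) and 1 between HFD-ncls and HFD-veh (Tpm2, against 1.70%). Myl1 was at 33.4, 28.3 and 28.7 FPKM in WAT, whereas its thick filament partner Mylpf, at a like level in muscle, was at 0.795, 0.981 and 0.898. The median share of the muscle level was 0.0275%, 0.0209% and 0.0280%, so no ordered change of muscle transcripts was seen in WAT.

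In liver the members were higher in HFD-veh than in the other groups. They made up 0.0142%, 0.0288% and 0.0167% of the summed FPKM, with 4, 12 and 5 members at 1 FPKM or more. HFD-veh was the highest liver library for 37 of 49 members and all 11 fast genes, and for 34.9% of all 10137 genes with at least 1 FPKM. Between HFD-veh and NCD-veh, 9 of 12 members differed over 2-fold (5.12% of all genes), all higher in HFD-veh, and between HFD-ncls and HFD-veh 8 of 12 did (2.31%), all lower in HFD-ncls. Most of the 12 reached 1 FPKM through HFD-veh alone, so the minimum fixed their direction in both comparisons. Tnnt3 was listed at 0 in NCD-veh and HFD-ncls liver and was at 10.2 FPKM in HFD-veh. Acta1 was at 1.58, 15.4 and 2.16 FPKM. The median share of the muscle level was 0.0648% in HFD-veh and 0.00138% in HFD-ncls liver, and the median gene was under 0.001 FPKM in NCD-veh. Muscle transcripts in HFD-veh liver thus stood at even proportions. Liver transcripts were found in HFD-veh muscle in turn, and the source of either was not tested.

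The 3 highest members in liver stayed within 2-fold across the groups, although Tpm1 was also highest in HFD-veh. Tpm3 was at 30.1, 32.4 and 39.0 FPKM and Tpm1 at 14.6, 19.6 and 13.2 FPKM. Csrp3 was at 22.9, 22.4 and 19.7 FPKM in liver, above its level in the muscle library of the same group in all 3 groups, and under 0.3 FPKM in WAT. Tnnc1 was at 0.939, 2.21 and 4.07 FPKM, highest in HFD-ncls, where the fast genes were near 0. In NCD-veh and HFD-ncls liver, Csrp3 and Tnnc1 were thus read while every fast gene was under 1 FPKM. In HFD-veh liver fast genes were present beside them, with Tnnt3 at 10.2 FPKM.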

How the data were processed

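RNA was sequenced from 12 libraries, and each was assigned to its organ and group from its label. Reads were placed on mm9 with TopHat by the authors, who computed a level per RefSeq gene in Cufflinks and deposited these levels as FPKM (fragments per kilobase of transcript, scaled to the mapped fragments of the library). FPKM is not a count, so no count model was applied, and with 1 library per organ and group no test was made.

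Levels were compared as log2(FPKM + 0.1) for genes with at least 1 FPKM in 1 of the 2 libraries, at 2-fold and 1.4-fold. Such differences understate the change of low genes. Values under 0.001 FPKM were treated as 0 in shares of the muscle level, which used members with at least 10 FPKM in muscle. All 49 members had a value in all 12 libraries, and 86 of the 22276 symbols lacked one in at least 1 library. The members and lists were chosen with earlier results of these data known. The genes named with their values were both genes of each pair, every member over 2-fold apart between any 2 muscle libraries, the 2 highest members of each role in NCD-veh muscle and in HFD-veh BAT, members not lower in HFD-ncls than HFD-veh BAT, and the 3 highest in WAT and in liver. Other members named were chosen after their values were seen.

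Depth was estimated from values up to 0.05 FPKM of transcripts of at least 1500 bases. Many of these values are whole multiples of 1 fragment. In each library 57.2% to 63.9% fell within 0.1 of a whole number, so depth is approximate and no interval rests on it. Transcript lengths, 50-base stretches shared between genes and mm9 positions came from the NCBIM37 reference with GENCODE vM1, and promoter windows from RefSeq on GRCm38.p6. Python 3.11.15 with numpy 2.4.6, pandas 2.3.3 and matplotlib 3.10.9 was used, and the functions were tested on simulated data. Alternatives covered the pseudocount, the minimum FPKM, rescaling by the median ratio, transcript length, shared stretches and the denominator of the shares.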

Additional observations from a re-analysis of the deposited data

Results flagged for a closer look

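Between HFD-ncls and HFD-veh, 7 of the 37 members with at least 1 FPKM in both organs differed over 2-fold in opposite directions in muscle and BAT, higher in HFD-ncls muscle and lower in HFD-ncls BAT. They were also the only genes to do so among all 8765 genes compared in both organs (0.0799%). Of the HFD libraries in BAT, Myh7, Myl3, Tnni1, Lmod2 and Csrp3 reached 1 FPKM only in HFD-veh. Of those in muscle, Myl2, Myl3, Tnni1 and Tnnc1 reached it only in HFD-ncls. In these cases the minimum fixed the direction, so the count is no support for a difference between the organs. The log2 difference was 1.18 in muscle and -3.23 in BAT for the slow heavy chain Myh7. For its regulatory light chain Myl2 it was 4.29 in muscle and -3.44 in BAT, and for the essential light chain Myl3 it was 3.42 and -3.46. The slow troponin subunits had differences of 3.63 and -4.14 for Tnni1 and of 3.91 and -2.25 for Tnnc1. Lmod2, the pointed-end leiomodin, had 1.09 and -2.75, and the muscle LIM protein Csrp3 had 1.57 and -2.34. The difference between the organs was not tested, since each organ has 1 library per group. In BAT these genes moved with the fast members and with the muscle genes outside the sarcomere, whose medians there were -2.70 and -2.47.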

How the results depend on the processing

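Under the alternatives, 174 of 197 values of the results that answer a comparison moved by under 1.5 times, and these 23 moved more. No median past 1.4-fold changed sign. Medians nearer 0 did, namely that of the fast genes in muscle (HFD-veh minus NCD-veh), from 0.01 to -0.02 rescaled by the median ratio and -0.08 centred by length class, that of the slow genes in BAT for the same groups, from -0.36 to 0.02 with a minimum of 5 FPKM, and that of the thin filament genes in muscle (HFD-ncls minus HFD-veh), from 0.12 to -0.01 with that minimum. With a minimum of 5 FPKM fewer members were counted over 2-fold, namely 4 in muscle (HFD-veh against NCD-veh), 23 in BAT for the same groups and 19 in BAT for HFD-ncls against HFD-veh, and 21 over 1.4-fold there. With a pseudocount of 1 the BAT median for HFD-ncls against HFD-veh became -1.77 over all members and -1.67 over slow genes, and the slow median was -2.34 with no minimum and -2.25 with 5 FPKM. In WAT the members over 2-fold between HFD-veh and NCD-veh were 0 (pseudocount of 1), 2 (pseudocount of 0.01), 7 (no minimum) and 0 (5 FPKM), and between HFD-ncls and HFD-veh 0, 5 and 0 with the pseudocount of 1, no minimum and 5 FPKM. In liver they were 22 and 23 with no minimum. Counted as the excess over the lowest library of the organ, the median share of the muscle level was 0 in HFD-ncls BAT and HFD-ncls liver and 0.00359% (NCD-veh), 0.00196% (HFD-veh) and 0.0124% (HFD-ncls) in WAT, and with the mean of the muscle libraries as denominator it was 0.000697% in NCD-veh liver. With 1 library per group no library could be left out. No paired analysis was possible because each group has 1 library and no result comes from a test. Low slow genes in HFD-veh muscle rest on few fragments, and differences below 2-fold may lie within the unmeasured spread between mice.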
